A study of Mus musculus with 4 samples.

Results

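The 8 genes described here encode the mouse receptors for IgG and the proteins that carry their signal into the cell: the activating receptors Fcgr1, Fcgr3 and Fcgr4, the inhibitory receptor Fcgr2b, the neonatal receptor Fcgrt, the adaptors Fcer1g and Tyrobp, and the kinase Syk. They were chosen by name, and every probe set annotated to the symbol of 1 member and no other gene was used. This gave 16 probe sets for the 8 genes, out of 45101 probe sets on the array and 18194 genes with a probe set of their own. The RNA came from myeloid-derived suppressor cells (MDSCs), immature myeloid cells that restrain T cells, in which the long noncoding RNA lnc-C/EBPβ (lncMDSC in the labels) had been knocked down or overexpressed, and was hybridised to 4 Affymetrix GeneChip mouse arrays. Every culture was started from C57BL/6 bone marrow cells, transduced at an MOI of 50 and kept for 4 days in IL-6 (40 ng/ml) and GM-CSF (40 ng/ml), and no sort of the cells before RNA extraction is described for these arrays. The lentivirus of kdLNC carried an shRNA to lnc-C/EBPβ and that of kdNC a control shRNA, while oeLNC received a lentivirus with lnc-C/EBPβ itself and oeNC the matching control lentivirus. Each group had 1 culture on 1 array, so no difference below has a replicate error or a p-value.

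Activating Fc gamma receptors bind the constant part of IgG on antibody-coated particles. Fcgr1, Fcgr3 and Fcgr4 reach the surface together with the Fcer1g chain, whose ITAM, a short tyrosine motif, is phosphorylated by Src family kinases and then recruits Syk, which starts phagocytosis, the oxidative burst and cytokine release. Fcgr2b carries an ITIM in its own tail, recruits the lipid phosphatase Inpp5d (SHIP1) and dampens the same signal, so that the level of activating against inhibitory receptors sets the threshold of a myeloid cell for immune complexes. Tyrobp (DAP12) is the ITAM adaptor of many other myeloid receptors, and Fcgrt takes up IgG inside the cell and returns it to the surface, which prolongs the life of IgG in the circulation.

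Sequence in front of the genes is shown because PU.1, the Ets factor of the myeloid lineage, is known to drive Fc receptor transcription, for instance that of FCGR1A in human cells. Promoters of 7 of the 8 genes were matched by symbol in the RefSeq table (GRCm38.p6), and that of Tyrobp was not. The 250 bases before each start were searched on both strands for GAGGAA, the PU.1 core. It was found in 4 of the 7 genes, and in 6986 of all 27025 genes. Counted by promoter, it was in 23.3% of all 32851 promoters of that length. The motifs were chosen after the sequences had been seen. In the stretches below, given 5′ to 3′ on the strand of the gene, capitals mark GAGGAA or its reverse complement TTCCTC:
Fcgr1, chr3:96293989-96294054, minus strand: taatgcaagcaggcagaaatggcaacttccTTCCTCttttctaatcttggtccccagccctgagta
Fcgr3, chr1:171059395-171059439, minus strand: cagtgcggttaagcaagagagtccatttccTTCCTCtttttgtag
Fcgr4, chr1:171018874-171018925, plus strand: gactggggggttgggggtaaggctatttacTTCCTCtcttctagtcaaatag
Syk, chr13:52596843-52596881, plus strand: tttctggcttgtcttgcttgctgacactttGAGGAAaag

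The stretches of Fcgr3, Fcgr4 and Syk run up to the start of the gene, and that of Fcgr1 stops with 19 bases left before it. Between the match and the start lay 49 bases in Fcgr1, 16 in Fcgr4, 3 in Syk and 9 in Fcgr3, counted to the more downstream of the annotated Fcgr3 starts, while the match reached up to the other start. The longest run that Fcgr1 and Fcgr3 shared in the searched bases was 14 bases across this match, TTCCTTCCTCTTTT. It was picked for being shared and long, so its rarity is no test. Promoters of Fcgr1 and Fcgr3 are among the 3 of 32851 that hold it (0.00913%). A C/EBP motif, TTGCNNAA, was found in front of Fcgr3 and Fcgrt (2 of the 7 genes, against 2930 of 27025 genes and 9.56% of promoters). A STAT motif, TTCNNNGAA, was found in front of Fcgr1 (1 of 7, against 2197 of 27025 genes and 7.02% of promoters). The Fcgr1 match to the STAT motif lay 100 bases away from the start, with capitals for the match here:
Fcgr1, chr3:96294040-96294108, minus strand: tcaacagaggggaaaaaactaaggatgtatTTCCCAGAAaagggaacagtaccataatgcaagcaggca

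A match describes these letters and was not tested as a binding site in these cells. Fcgr2b, Fcgr4 and Fcgr3 lie next to each other on chromosome 1, with 7 other protein-coding genes between Fcgr3 and Fcer1g in the RefSeq order, whereas Fcgr1 lies on chromosome 3, Tyrobp and Fcgrt on chromosome 7 and Syk on chromosome 13.

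Levels below are the log2 of the intensities that the authors deposited, and 1 unit is a doubling. The array medians were 4.18 in kdLNC, 4.20 in kdNC, 4.24 in oeLNC and 4.17 in oeNC, and 14 of the 16 probe sets lay above the array median on all 4 arrays. Itgam, which encodes the CD11b chain that defines MDSCs together with Gr1, was at 8.41 in kdLNC, 8.74 in kdNC, 8.65 in oeLNC and 9.03 in oeNC. All 14 measured neutrophil markers and all 11 monocyte markers lay above the median of every array. So did all 7 measured B cell markers, and 8 of 10 dendritic cell markers on each array, so a level above the median does not tell cell types apart. Ly6g, part of Gr1, has no probe set of its own here, and the annotation lists no probe set as lnc-C/EBPβ, so the target of the lentiviruses is not analysed here and the groups rest on the labels. The spread given beside a difference is the SD of the control difference (oeNC minus kdNC) over the 500 probe sets nearest in level, which ranged between 0.43 and 0.55 for the probe sets that represent the 8 genes. Vector, culture and array all differ between the controls and cannot be told apart.

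None of the 8 genes differed by 1.5-fold between kdLNC and kdNC, where 4.33% of 11505 genes did, and none between oeLNC and oeNC, where 9.32% of 11869 genes did. With so few genes, a count of 0 is near these shares and does not set the 8 genes apart from the rest. The widest differences on knockdown were those of Fcgrt (0.43), Fcgr1 (-0.40) and Fcgr2b (0.31), where the median absolute difference of the 500 probe sets nearest in level was 0.17 for Fcgrt, 0.15 for Fcgr1 and 0.14 for Fcgr2b, and the widest on overexpression was that of Fcgr4 (0.39, against 0.16). A count of 0 held also for the 16 probe sets in both pairs, against 5.26% of probe sets on knockdown and 11.1% on overexpression. A gene was represented by its brightest probe set and was counted where it lay above the array median on at least 1 array of the pair, which left out Fcgrt in the knockdown pair. In the knockdown pair 5 genes were higher and 3 lower in kdLNC (median log2 difference 0.063 over all 8 genes and 0.015 over the 7 above the filter, beside -0.048 over all genes). In the overexpression pair 5 were higher and 3 lower in oeLNC (median 0.11, beside -0.014). Of the 16 probe sets, 15 lay within 1 SD of the control difference on knockdown and all 16 on overexpression, where 88.7% and 78.4% of all 34958 probe sets did, since the controls differed more than either pair. Opposite signs in the pairs were seen at 6 of the 16, against 52.7% of all probe sets. At a lower threshold (0.32 on the log2 scale), 1 of the 8 genes passed on knockdown, Fcgr1, and 1 on overexpression, Fcgr4, against 19.1% and 32.1% of all genes, and Fcgrt and Fcgr4 passed between the control arrays (43.9% of genes). None passed 2-fold, which 0.834% of genes did on knockdown, 1.1% on overexpression and 7.03% between the control arrays. In these bulk cultures, fewer cells of a type and less RNA per cell cannot be told apart.

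**Figure D1:**
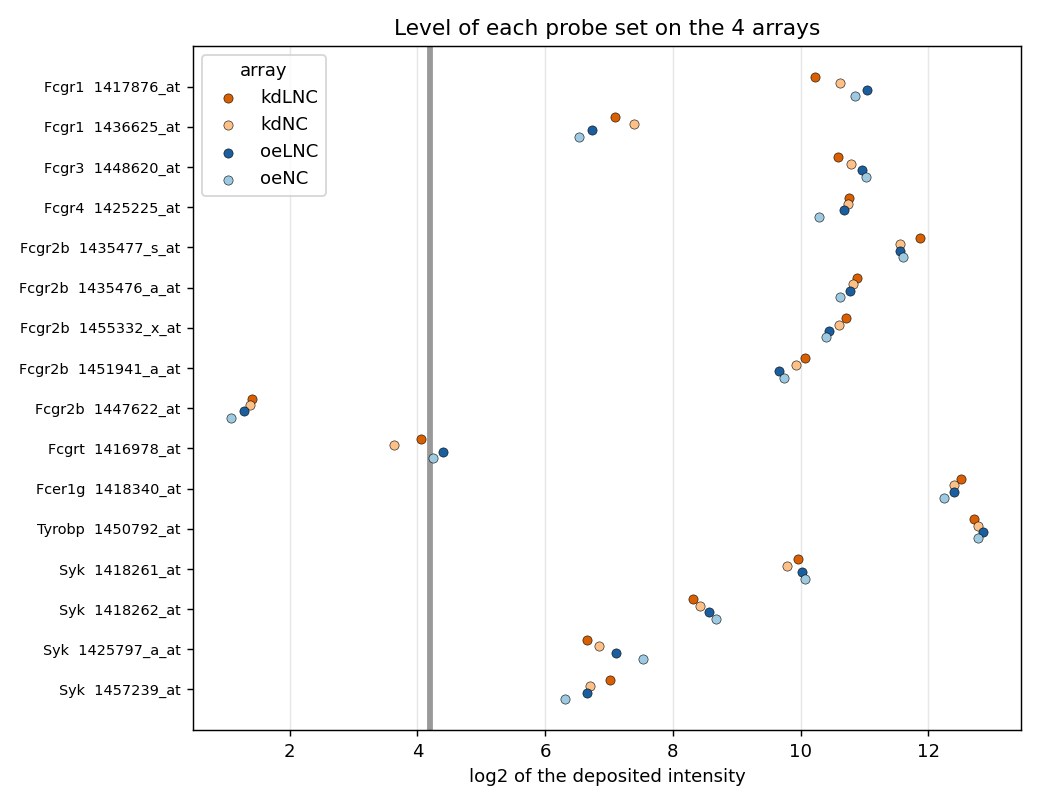
Log2 of the deposited intensity (x axis) of the 16 probe sets (rows) on the arrays kdLNC, kdNC, oeLNC and oeNC (1 point per array). The grey band spans the 4 array medians, 4.17 to 4.24. The points of most probe sets lie close together, the 5 Fcgr2b rows have kdLNC farthest to the right, and only 1 Fcgr2b row lies left of the band on all arrays.

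Fcgr1, the high-affinity receptor for IgG on monocytes and macrophages, had the widest span of the 8 genes over the arrays (0.83). Its brightest probe set (1417876_at) was at 10.22 in kdLNC and 10.62 in kdNC, and at 11.05 in oeLNC and 10.85 in oeNC. kdLNC was the lowest of the arrays and oeLNC the highest, with a difference of -0.40 on knockdown (1.32-fold lower in kdLNC, SD 0.52) and of 0.20 on overexpression. Probe sets of this level had a median absolute difference of 0.15 on knockdown and 0.16 on overexpression. A second Fcgr1 probe set (1436625_at) was at 7.09 in kdLNC and 7.39 in kdNC, and at 6.74 in oeLNC and 6.52 in oeNC. Both probe sets thus had the same directions in the pairs, -0.30 on knockdown and 0.21 on overexpression at the second, but they disagreed on the control arrays. Between these, oeNC minus kdNC was 0.23 at the first probe set and -0.87 at the second (1.82-fold lower in oeNC, SD 0.58), more than either pair.

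Fcgr3, the low-affinity activating receptor of neutrophils, macrophages and NK cells, was at 10.59 in kdLNC and 10.80 in kdNC, and at 10.97 in oeLNC and 11.03 in oeNC (1448620_at). It was slightly lower in kdLNC (-0.21) and nearly level in oeLNC (-0.065), against 0.24 between the control arrays and an SD of 0.51. Fcgr4, the mouse receptor for IgG2a and IgG2b on neutrophils and monocytes, was at 10.76 in kdLNC and 10.74 in kdNC, and at 10.69 in oeLNC and 10.29 in oeNC (1425225_at). Here 3 arrays lay close together and oeNC stood lowest, so that Fcgr4 was level on knockdown (0.015) and 1.31-fold higher in oeLNC than in oeNC (0.39). The control arrays differed at Fcgr4 by -0.45 (oeNC minus kdNC), more than either pair, with an SD of 0.52. Probe sets of the level of Fcgr4 had a median absolute difference of 0.16 on overexpression.

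Fcgr2b, the inhibitory receptor, was read by 5 probe sets, of which 3 are annotated from the same sequence record and are not separate readings of the RNA. The brightest (1435477_s_at) was at 11.86 in kdLNC and 11.55 in kdNC, and at 11.56 in oeLNC and 11.61 in oeNC. kdLNC stood above the other arrays, which lay within 0.052 of each other, and the difference was 0.31 on knockdown (1.24-fold higher in kdLNC, SD 0.45) and -0.049 on overexpression. At 1435476_a_at Fcgr2b was at 10.89 in kdLNC and 10.82 in kdNC, and at 10.78 in oeLNC and 10.62 in oeNC. At 1455332_x_at it was at 10.71 in kdLNC and 10.60 in kdNC, and at 10.44 in oeLNC and 10.40 in oeNC. At 1451941_a_at it was at 10.07 in kdLNC and 9.93 in kdNC, and at 9.67 in oeLNC and 9.74 in oeNC. kdLNC was thus the highest array at every Fcgr2b probe set, by 0.019 to 0.31 over kdNC, whereas the overexpression pair had both signs (-0.074 to 0.21). The fifth probe set, 1447622_at, was below the array median throughout, at 1.41 in kdLNC and 1.39 in kdNC, and at 1.29 in oeLNC and 1.08 in oeNC. The extracellular parts of Fcgr2b and Fcgr3 are close in sequence, and the share of RNA that a probe set takes from the other gene was not tested.

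**Figure D2:**
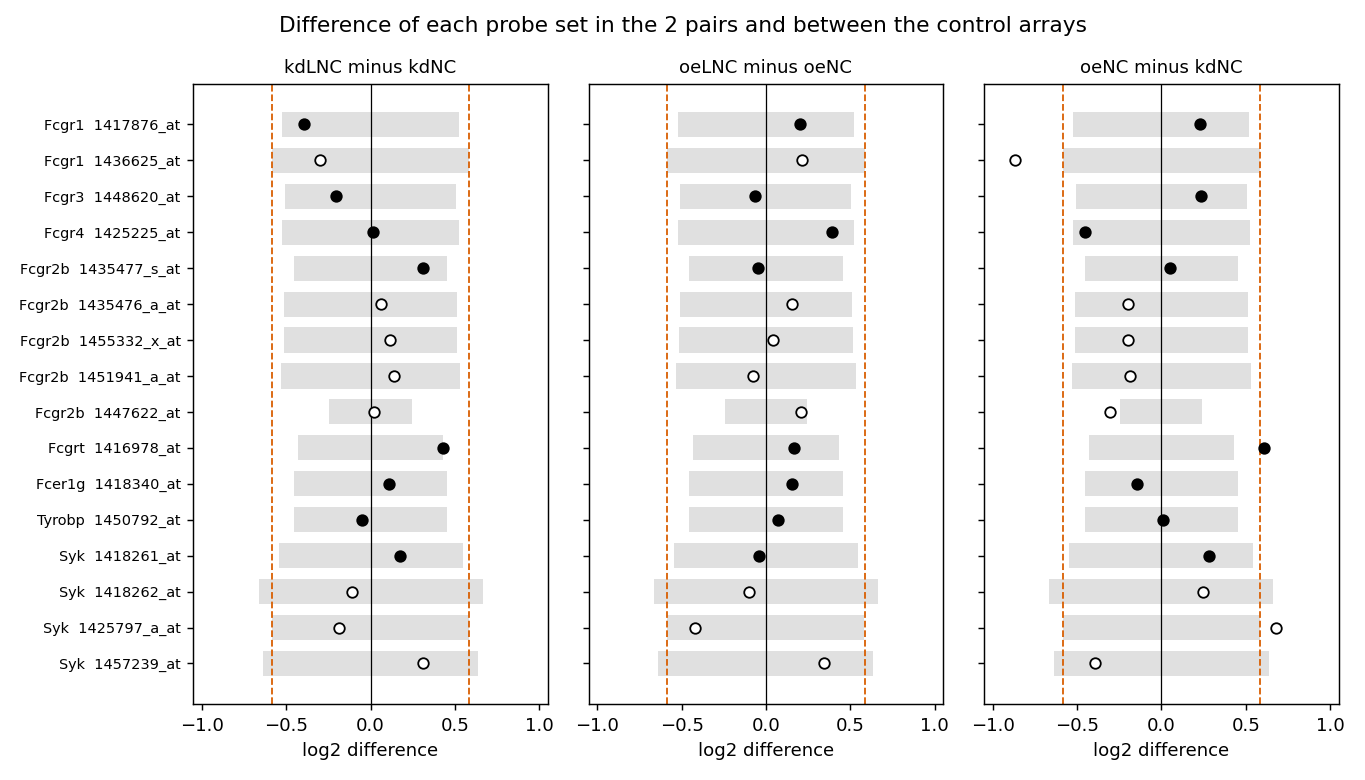
Log2 difference (x axes) of the 16 probe sets (rows) in kdLNC minus kdNC, in oeLNC minus oeNC, and in oeNC minus kdNC. Panels run in that order. The brightest probe set of a gene is filled and its others are open, the grey boxes reach 1 SD (of the control difference at that level) to each side of 0, and dashed lines mark 1.5-fold. No point crosses a dashed line in either pair, whereas 3 do between the control arrays, where 24.7% of 20120 probe sets passed 1.5-fold.

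The activating receptors were then set against the inhibitory one within each pair, a measure chosen after the values had been seen. On knockdown the difference of Fcgr1 minus that of Fcgr2b was -0.71, that of Fcgr3 minus Fcgr2b -0.51 and that of Fcgr4 minus Fcgr2b -0.29, all in the direction of less activating RNA relative to inhibitory RNA in kdLNC. On overexpression the values were 0.25 for Fcgr1, -0.016 for Fcgr3 and 0.44 for Fcgr4. Over the 16 combinations of an activating probe set with an Fcgr2b probe set, leaving out the dim one, 16 were negative on knockdown (-0.71 to -0.050) and 3 on overexpression (-0.22 to 0.47). Between the control arrays 8 of the 16 were negative (-0.92 to 0.43), a wider range than in either pair. The combinations share probe sets and arrays, 3 of the Fcgr2b probe sets share a sequence record, and the count is not one of separate readings. On knockdown the highest activating difference was 0.015 (Fcgr4) and the lowest of these Fcgr2b differences 0.0645 (1435476_a_at). That alone makes all 16 negative. The values are a description of the 4 cultures.

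Fcgrt, the neonatal Fc receptor, was dim, at 4.06 in kdLNC and 3.63 in kdNC, and at 4.41 in oeLNC and 4.24 in oeNC (1416978_at). It lay above the array median in the overexpression pair and below it in the knockdown pair. The difference was 0.43 on knockdown (1.35-fold higher in kdLNC, SD 0.43) and 0.16 on overexpression, and the control arrays differed by 0.61 (1.53-fold higher in oeNC). Fcgrt was the only one of the 8 genes past 1.5-fold between the control arrays, where 21.4% of 11723 genes were.

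Fcer1g, the chain that Fcgr1, Fcgr3 and Fcgr4 need for surface expression, was at 12.51 in kdLNC and 12.40 in kdNC, and at 12.40 in oeLNC and 12.25 in oeNC (1418340_at). It was a little higher in kdLNC than in kdNC (0.11) and in oeLNC than in oeNC (0.15), and the control difference was -0.15 (SD 0.45). Tyrobp was at 12.72 in kdLNC and 12.77 in kdNC, and at 12.85 in oeLNC and 12.78 in oeNC (1450792_at). Its span of 0.13 was the narrowest of the 8 genes, with differences of -0.053 on knockdown and 0.070 on overexpression. Both adaptors lay near the top of the scale, where the highest value was 13.52 in kdLNC, 13.55 in kdNC, 13.59 in oeLNC and 13.59 in oeNC.

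Syk, the kinase that binds phosphorylated ITAMs, was read by 4 probe sets that disagreed in sign. The brightest (1418261_at) was at 9.96 in kdLNC and 9.79 in kdNC, and at 10.03 in oeLNC and 10.07 in oeNC, with differences of 0.17 on knockdown and -0.040 on overexpression. The next (1418262_at) was at 8.32 in kdLNC and 8.42 in kdNC, and at 8.57 in oeLNC and 8.67 in oeNC, slightly lower in kdLNC than in kdNC (-0.11) and in oeLNC than in oeNC (-0.10). At 1425797_a_at Syk was at 6.66 in kdLNC and 6.85 in kdNC, and at 7.11 in oeLNC and 7.53 in oeNC, which gave -0.19 on knockdown and -0.42 on overexpression (1.34-fold lower in oeLNC, SD 0.58). At 1457239_at it was at 7.02 in kdLNC and 6.71 in kdNC, and at 6.66 in oeLNC and 6.32 in oeNC, which gave 0.31 on knockdown and 0.34 on overexpression. The control arrays differed in both directions too, by 0.68 at 1425797_a_at (1.60-fold higher in oeNC) and -0.39 at 1457239_at, and the direction of Syk is not settled by these arrays.

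**Figure D3:**
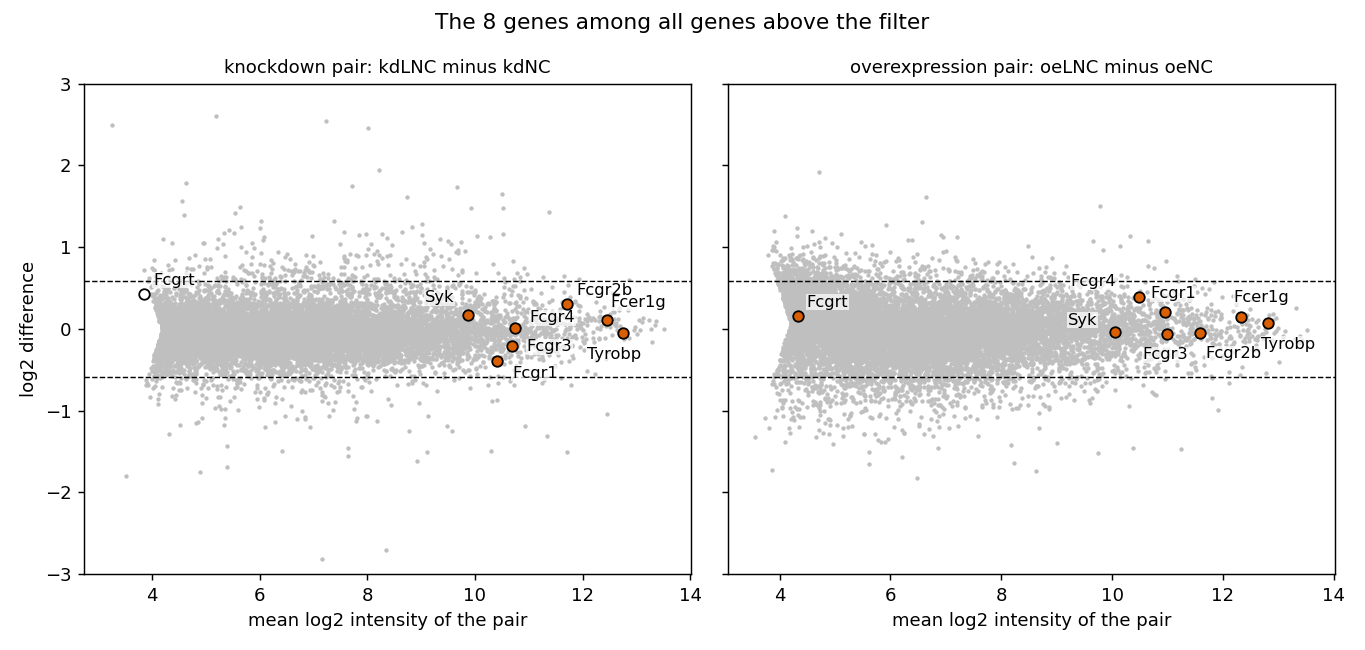
Log2 difference (y axis) against the mean log2 intensity of the pair (x axis) for the genes above the filter (grey), with the 8 genes in orange, for kdLNC minus kdNC (left) and oeLNC minus oeNC (right). Fcgrt is drawn open where it lies below the filter, and dashed lines mark 1.5-fold. The 8 genes lie between the lines, and all but Fcgrt lie toward the bright end.

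As Fcgr1 had the widest span, the genes with the nearest profile over the 4 arrays were sought among the 9096 genes with a mean above the median gene. The closest were Cldn3, which encodes a tight junction protein (root mean square difference 0.0092 after each gene was centred on its own mean), Pcgf5, which encodes a Polycomb RING finger protein (0.013), and Agpat5, which encodes an acyltransferase of phospholipid synthesis (0.028). Cldn3 had -0.41 on knockdown and 0.19 on overexpression, and Agpat5 had -0.38 and 0.28. A profile over 4 arrays has few degrees of freedom, and such matches describe these arrays.

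The genes around the receptors were read from 5 lists with 99 genes, of which 84 had a probe set of their own. In the knockdown pair 79 lay above the filter, 2 of them at least 1.5-fold higher and 5 at least 1.5-fold lower in kdLNC, where 2.36% of all genes were higher and 1.96% lower. In the overexpression pair 79 lay above the filter, with 2 higher and 2 lower in oeLNC, where 3.93% of all genes were higher and 5.38% lower. Between the control arrays 21 of 78 passed 1.5-fold, 5 higher and 16 lower in oeNC, where 9.22% of all genes were higher and 12.2% lower.

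Receptors that signal through Fcer1g or Tyrobp had the lowest median of the 5 lists on knockdown. The adaptors themselves were close to level, but they lay near the top of the scale, and any narrowing of differences there was not tested. Of 14 receptors measured, 4 were at least 1.5-fold lower in kdLNC, none was higher and 10 lay between (median -0.40). Trem1, a Tyrobp-coupled receptor that amplifies inflammation in neutrophils and monocytes, was at 7.27 in kdLNC and 8.24 in kdNC, and at 9.45 in oeLNC and 9.67 in oeNC. Its difference was -0.98 on knockdown and -0.22 on overexpression, with -0.31 and 0.11 at its second probe set, but the control arrays differed more (1.43). Siglech, a Tyrobp-coupled lectin of plasmacytoid dendritic cells, was at 4.80 in kdLNC and 5.78 in kdNC, and at 5.36 in both oeLNC and oeNC (-0.98 on knockdown). Cd300lb, an activating receptor that couples to Tyrobp, was at 7.34 in kdLNC and 8.23 in kdNC, and at 8.27 in oeLNC and 8.11 in oeNC, so that kdLNC stood apart from the other arrays (-0.89). Clec5a, a Tyrobp-coupled lectin of myeloid cells, was at 7.71 in kdLNC and 8.36 in kdNC, and at 7.84 in oeLNC and 7.51 in oeNC (-0.65 on knockdown and 0.33 on overexpression), and its control difference was -0.85. On overexpression 1 of the 14 passed 1.5-fold, Oscar, an Fcer1g-coupled receptor for collagen, at 4.74 in oeLNC and 4.08 in oeNC (0.66), with 0.080 at its second probe set (list median 0.063). Oscar was dim, below the array median of 4.17 in oeNC, and was counted in this pair through oeLNC alone.

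Neutrophil markers had a negative median on knockdown (-0.56), and that of eosinophil markers was lower (-1.07). Of 14 neutrophil markers measured, 7 were at least 1.5-fold lower in kdLNC and 1, Stfa3 (1.48), was higher. Over all genes 1.96% were lower and 2.36% higher. The bright Lcn2 (0.12), S100a8 (0.098) and S100a9 (0.047) were nearly level, whereas Ltf (-2.70) and Camp (-1.50) were lower. The summed neutrophil intensity was 46434 in kdLNC and 56003 in kdNC, against 55640 in oeLNC and 59554 in oeNC (list median -0.083 on overexpression). Monocyte markers had a median of 0.089 on knockdown and -0.16 on overexpression, and a summed intensity of 14408 in kdLNC and 13796 in kdNC, against 17125 in oeLNC and 18889 in oeNC. Macrophage markers had medians of -0.00050 and -0.43, dendritic cell markers -0.036 and -0.18, NK cell markers -0.10 and 0.39, B cell markers 0.14 and -0.11, and platelet markers -0.34 and -0.018. The part of these cell types in the receptor differences was not tested. Fcgr1, Fcgr3 and Fcgr4 are expressed by monocytes or neutrophils as well, and that limit applies to each of them. It applies also to Fcgr2b, and to the activating receptors set against Fcgr2b.

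**Figure D4:**
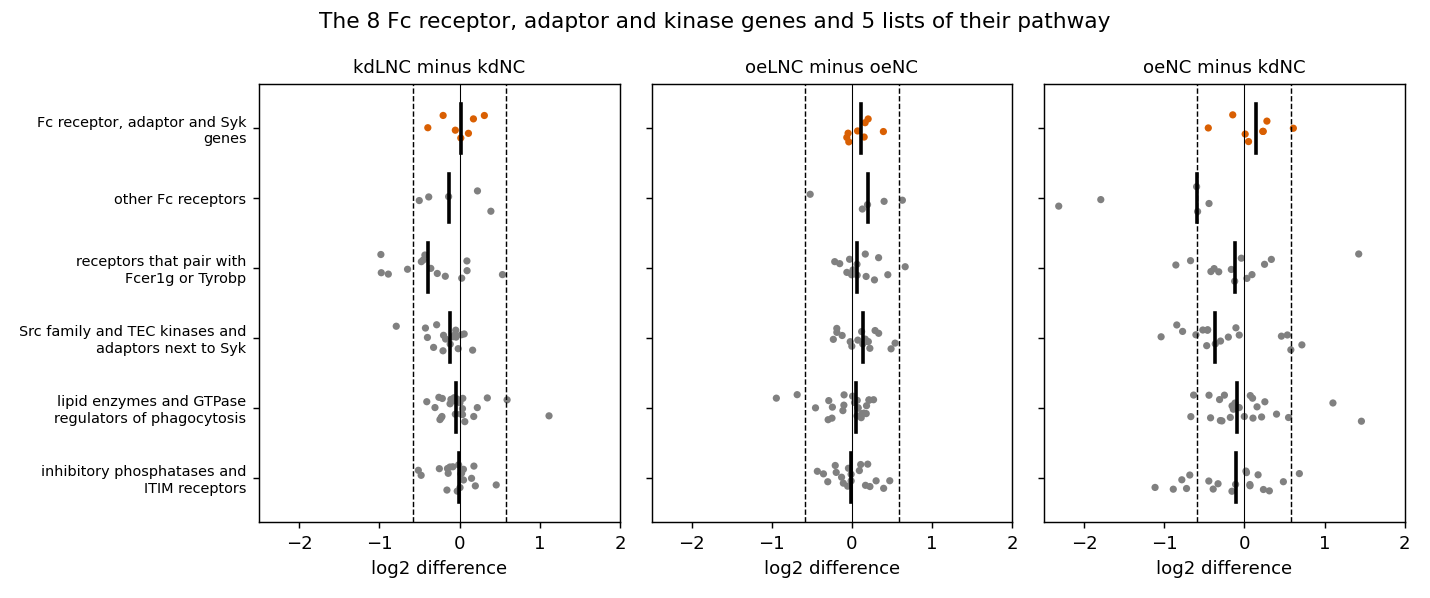
Log2 difference (x axes) of the 8 genes (orange) and of the genes of 5 pathway lists (grey), each point a gene above the filter, in kdLNC minus kdNC, in oeLNC minus oeNC, and in oeNC minus kdNC. Thick bars are list medians and dashed lines mark 1.5-fold. On knockdown the receptors that pair with Fcer1g or Tyrobp have the lowest median, -0.40, while the median of the 7 of the 8 genes above the filter is 0.015.

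Of the other Fc receptors 5 of 9 measured genes lay above the filter, and none passed 1.5-fold on knockdown (median -0.14). Ms4a2, the beta chain of the IgE receptor on mast cells and basophils, was at 7.53 in kdLNC and 7.67 in kdNC, and at 5.98 in oeLNC and 5.36 in oeNC. It was higher by 0.63 in oeLNC than in oeNC, with -0.075 at its second probe set, and differed by -2.32 between the control arrays. Fcer1a, the IgE-binding chain that also pairs with Fcer1g, was at 6.00 in kdLNC and 6.51 in kdNC, and at 4.91 in oeLNC and 4.72 in oeNC (-0.50 on knockdown, 0.19 on overexpression and -1.79 between the control arrays). Both shRNA arrays thus stood above both overexpression arrays for Fcer1a and for the brightest Ms4a2 probe set. For Fcer1g, with which Fcer1a pairs, kdNC and oeLNC were level (12.396 and 12.403), while kdLNC was highest and oeNC lowest. Its control difference (-0.15, SD 0.45) had the same sign as that of Fcer1a and was smaller. Mast cell and basophil markers had a control difference in the same direction (median -0.64 over 6 of 9 above the filter, although their summed intensity was 3249 in oeNC and 3063 in kdNC), as had eosinophil markers (median -1.71 over 5 of 6, summed intensity 1294 in oeNC and 2699 in kdNC), and their part was not tested. Eosinophil markers were also lower in kdLNC than in kdNC (median -1.07) and had a median of 0.044 on overexpression, where the mast cell and basophil list had -0.18 on knockdown and 0.34 on overexpression.

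Downstream of the ITAM, Src family and TEC kinases and adaptors next to Syk had a median of -0.12 on knockdown and 0.13 on overexpression over 17 genes. The only one past 1.5-fold was Lat2 (NTAL), a transmembrane adaptor phosphorylated by Syk, at 5.74 in kdLNC and 6.53 in kdNC, and at 6.14 in oeLNC and 6.02 in oeNC. Its difference on knockdown was -0.79 at the brightest of 3 probe sets and reached 0.11 at another. The list of lipid enzymes and GTPase regulators of phagocytosis also holds genes outside these classes, such as Malt1 and Bcl10. Of its 24 genes, 2 passed on knockdown and 2 on overexpression, and Malt1 was 1 of the 2 in each pair. Malt1, the paracaspase that links Syk to NF-κB, was at 8.92 in kdLNC and 7.81 in kdNC, and at 8.32 in oeLNC and 9.27 in oeNC. It was higher in kdLNC (1.12) and lower in oeLNC (-0.94), with the same directions at its 3 probe sets (0.63 to 1.12 and -0.94 to -0.50), and it differed by 1.46 between the control arrays. Vav1, the exchange factor that activates Rac below Syk, was at 7.74 in kdLNC and 7.15 in kdNC, and at 6.76 in oeLNC and 6.73 in oeNC (0.59 on knockdown and 0.032 on overexpression), and its other probe set had 0.64 on knockdown and 0.96 on overexpression, so that the probe sets disagree on the second pair. Pik3cd, a catalytic subunit of leukocyte PI3-kinase, was at 10.01 in kdLNC and 9.79 in kdNC, and at 10.21 in oeLNC and 10.90 in oeNC, and its 6 probe sets ran from -0.68 to 1.02 on overexpression. The 19 inhibitory phosphatases and ITIM receptors, Inpp5d among them, had no gene past 1.5-fold in either pair (medians -0.012 on knockdown and -0.011 on overexpression).

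RNA integrity at the 3′ and 5′ ends was read from the array's own control probe sets. The log2 ratio of 3′ to 5′ signal for beta-actin was 1.96 in kdLNC and 1.61 in kdNC, and 1.97 in oeLNC and 1.96 in oeNC, and for Gapdh it was 0.69 in kdLNC and 0.51 in kdNC, and 0.65 in oeLNC and 0.53 in oeNC. The kdNC array thus had the smallest ratios, and the part of RNA quality in the knockdown differences was not tested.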

How the data were processed

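The authors deposited intensity values of 45101 probe sets on 4 Affymetrix mouse arrays on a linear scale, and the submitters' processing notes name RMA, whose version and settings are not given in the sources used here. Their log2 was taken. Probe sets with 1 gene symbol in the platform annotation (34958) were used, and those with several (932) or without one (9211) were not. Differences were taken within each pair, and between the controls as oeNC minus kdNC, in Python 3.11.15 (numpy 2.4.6, pandas 2.3.3, statsmodels 0.14.6 for loess, matplotlib 3.10.9 for plots). Members, lists and tests were chosen with earlier results of these data known. The methods' limma test needs replicates and was not run. Of each pathway list, up to 4 genes above the filter with the largest difference past 1.5-fold in a pair were named, with the 3 genes nearest in profile to the member of widest span. Fcer1a and Itgam were added as a receptor chain and a defining marker. Of 197 listed genes 171 had a probe set of their own. Counting was tested on simulated arrays. Alternatives were median centring, quantile and loess normalization, the mean of all probe sets, leaving out probe sets named _s_at, _x_at or _a_at, no filter or the 70th percentile, the mean of both controls, and a lower (0.32 on the log2 scale) or higher (2-fold) threshold. The number of arrays limits the precision.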

Additional observations from a re-analysis of the deposited data

How the results depend on the processing

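No paired analysis was possible because there is 1 array of each kind, and for the same reason no array could be left out. Under the alternatives, 135 of 136 differences of the 8 genes moved by less than the SD of the control difference, and the exception was Fcgr1 between the control arrays (-0.32 with the mean of its probe sets). Most differences were below that SD as deposited (7 of 8 genes on knockdown, 8 of 8 on overexpression). Losing such a difference altogether would stay within this limit, so the count says little about robustness. On knockdown Fcgr2b went from 0.31 to 0.13 with the mean of its probe sets. Without its _s_at, _x_at and _a_at probe sets, which left only the dim one, it was 0.019. The sign changed in 11 of the 136, 1 of them on knockdown (Fcgr4, -0.026 after quantile normalization) and 5 on overexpression. There Fcgr2b had 0.21 without its _s_at, _x_at and _a_at probe sets, and Fcgr3 0.053 and Syk 0.10 with the mean of both controls. Medians of the 8 genes moved by less than 0.1, a limit chosen after the values were seen.

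At the lower threshold (0.32 on the log2 scale) 1 of the 8 genes passed on knockdown, 1 on overexpression and 2 between the control arrays, where the 70th percentile filter and 2-fold left 0. Over all genes, the lower threshold gave 2192 genes on knockdown, 3812 on overexpression and 5141 between the control arrays, and 2-fold gave 96, 131 and 824. The knockdown count of 498 was 314 with the mean of all probe sets and 1008 with the mean of both controls, and the overexpression count of 1106 was 654 and 718, and 681 with the 70th percentile filter. Of the overexpression calls 42.2% were higher in oeLNC, 24.8% after median centring and 56.3% with no filter (926 higher and 720 lower). For the pathway lists, whose alternatives were chosen after the values were seen, the lower threshold gave 23, 16 and 42 genes and 2-fold 1, 0 and 7, and the mean of all probe sets gave 1 on overexpression. Their knockdown split of 2 higher and 5 lower became 5 and 4 with the mean of both controls and 3 and 4 without _s_at, _x_at and _a_at probe sets. Signal over background is not known for these values, which limits Fcgrt and the dim Fcgr2b probe set.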
